A study of Mus musculus with 4 samples.

Results

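The genes described here are 10 of the 24062 in the count table: *Nrn1*, *Gap43*, *Basp1*, *Nell2*, *Rtn1*, *Akap6*, *Sncg*, *Rbpms*, *Rbpms2* and *Thy1*. They code for proteins of growth cones and growing axons or serve as markers of retinal ganglion cells (RGCs). They were picked by name with the contrast between the genotypes already known, so their differences between genotypes are given as a description, with no p-value. In *Nrf1*-deficient retinas, 9 of the 10 had a lower level in both libraries than in either wildtype library, beside 31.6% of all tested genes. The remaining levels ran from 13.9% of wildtype for *Nrn1* to 73.0% for *Rbpms*. *Thy1* differed from the others, with 1 count in each wildtype library and 11 and 25 counts in the mutant libraries.

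RNA was sequenced from retinas of E13.5 mouse embryos of the strain C57BL/6 129 mixed, in 2 libraries labelled as wild type and 2 labelled as Nrf1-CKO. The Nrf1-CKO embryos were *Nrf1 f/f;Six3-Cre*: both alleles of *Nrf1*, a transcription activator of nuclear genes for mitochondria, were floxed, and Cre under *Six3* control removed an exon in retinal progenitor cells. Retinas of several littermates were pooled for each library. The spread within a genotype is therefore that of 2 pools, and nothing in the sources used here says that the pools came from separate litters.

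Between 74577660 and 85933945 reads per library were counted on genes. Libraries of the same genotype were further apart than sampling noise alone would make them (chi-square of 42.0 per gene in wildtype and 51.5 in Nrf1-CKO retinas). *Nrf1* itself did not check the labels, because a count over the whole gene includes the exons that remain after deletion. Its log2 fold change was -0.03 (SE 0.07, adjusted p = 0.794 from edgeR). Genes of other tissues stood at different levels in the genotypes, and their values are given below beside the genes they bear on.

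RGCs are the projection neurons of the retina and the first class of retinal neuron to be born. Their axons leave the eye through the optic nerve, led by growth cones, the motile tips in which membrane, actin and microtubules are assembled in response to guidance cues. Proteins such as GAP43 and BASP1 lie under the growth cone membrane and bind calmodulin, surface and secreted proteins such as neuritin and NELL2 act between cells, and the RBPMS and synuclein gamma proteins are used as markers of RGCs.

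As a check of the label, 12 other RGC markers were examined, including the transcription factor genes *Pou4f2* and *Isl1*. All 12 were detected in wildtype retinas, with a summed level of 2830 and 3256 CPM (reads scaled to a common library size), and fell in Nrf1-CKO retinas, to sums of 1265 and 1030 CPM. Several of these markers were named by the study from these libraries, so this count is not independent evidence of its direction. The level of *Thy1* went against the label. Its 1 count per wildtype library lies under the floor of 3 counts used here, so it was not detectable above that floor in E13.5 wildtype retinas at this depth. In a pool of whole retinas, fewer cells of a type and less RNA per cell cannot be told apart, and this holds for every level below.

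The 10 genes lay on 7 chromosomes of GRCm38 and shared no annotated exon with another gene, on either strand, in the GENCODE annotation. *Sncg* was the shortest, 4516 bp on the minus strand of chromosome 14 (34370274 to 34374789), and *Akap6* the longest, 456217 bp on the plus strand of chromosome 12 (52699383 to 53155599). Of the stretches of 100 bases in their coding transcripts, none was found in transcripts of another gene for 8 of the 10. The exceptions were *Nrn1*, with 18.0% shared with transcripts of *Fars2*, and *Rbpms2*, with 9.50% shared with *Gm3470*. Reads from these stretches could be split or lost in counting, so the levels of *Nrn1* and *Rbpms2* are less certain than those of the others.

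Promoter sequence from RefSeq (GRCm38.p6) was matched for 5 of the 10 genes, in 7 windows that run from 250 bases before to 50 bases after a transcription start. The 250 bases before the start are printed for the genes with the smallest remaining levels among these 5, *Sncg* and *Akap6*, and for those with the largest, *Rbpms2* and *Basp1*. They read 5′ to 3′ on the strand of the gene, with CpG dinucleotides, the sites of DNA methylation, in capitals. The coordinates are chr14:34374670-34374919 (minus strand, *Sncg*), chr12:52699133-52699382 (plus strand, *Akap6*), chr9:65630332-65630581 (plus strand, *Rbpms2*) and chr15:25413765-25414014 (minus strand, *Basp1*). The starts are those of RefSeq. By the GENCODE gene models, the *Sncg* sequence lies partly and the *Rbpms2* sequence wholly within the gene.
Sncg: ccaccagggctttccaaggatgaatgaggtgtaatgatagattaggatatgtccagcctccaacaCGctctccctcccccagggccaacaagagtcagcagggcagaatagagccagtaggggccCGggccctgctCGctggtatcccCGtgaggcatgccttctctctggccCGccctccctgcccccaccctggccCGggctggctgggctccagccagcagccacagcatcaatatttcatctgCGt
Akap6: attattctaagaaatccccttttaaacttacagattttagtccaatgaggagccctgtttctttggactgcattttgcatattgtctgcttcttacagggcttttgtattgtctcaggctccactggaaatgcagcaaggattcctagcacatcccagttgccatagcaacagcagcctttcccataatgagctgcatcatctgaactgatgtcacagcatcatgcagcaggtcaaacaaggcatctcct
Rbpms2: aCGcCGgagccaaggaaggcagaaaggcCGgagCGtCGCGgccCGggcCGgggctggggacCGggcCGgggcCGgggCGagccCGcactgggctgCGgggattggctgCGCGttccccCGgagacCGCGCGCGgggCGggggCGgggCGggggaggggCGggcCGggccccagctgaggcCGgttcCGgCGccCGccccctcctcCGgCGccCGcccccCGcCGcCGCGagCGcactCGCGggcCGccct
Basp1: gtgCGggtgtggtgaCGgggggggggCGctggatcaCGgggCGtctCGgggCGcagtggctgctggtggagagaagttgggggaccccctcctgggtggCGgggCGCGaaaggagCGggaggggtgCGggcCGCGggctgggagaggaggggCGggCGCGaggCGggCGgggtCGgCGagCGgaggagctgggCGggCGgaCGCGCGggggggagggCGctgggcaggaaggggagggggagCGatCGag
The *Sncg* and *Akap6* sequences held 7 and 0 CpG dinucleotides, with a GC content of 61.6% and 43.6%. Those of *Rbpms2* and *Basp1* held 41 and 30, with 84.8% and 78.8% GC. The median over all 32851 windows in the table was 6. *Rtn1*, with 3 start sites, had windows with 3, 8 and 35. TGCGCA, a core of NRF1 sites, was in none of the 7 windows on either strand, beside 7.76% of all windows. The POU4F motif ATAATTAAT, which does not overlap that core, was also in none of the 7, beside 0.274% of all windows. These letters are absent from these windows, and nothing follows from that about either factor. The printed genes were chosen by their remaining levels, and a link between CpG content and level was not tested.

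Wildtype levels were compared between genes as CPM per kilobase of the exons of their coding transcripts. *Sncg* was at 185 and 210 CPM per kilobase, *Basp1* at 173 and 200, and *Gap43* at 165 and 182, so the ranges of these neighbours overlapped. Much lower stood *Rtn1* at 17.6 and 20.0 and *Rbpms* at 17.8 and 18.9, which also overlapped. *Nell2*, at 12.1 and 15.0, and *Rbpms2*, at a mean of 13.4, did not differ beyond their spread either. *Akap6* followed at 8.35 and 9.63 and *Nrn1* at 6.29 and 7.41 CPM per kilobase, without overlap, and *Thy1* lay at the floor.

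This order was different in Nrf1-CKO retinas. *Basp1* was highest, at 132 and 113 CPM per kilobase, followed by *Gap43* at 59.9 and 48.7 and *Sncg* at 45.2 and 27.7, and these ranges did not overlap. *Sncg*, the highest in wildtype, thus came after both. *Rbpms* came next at 13.6 and 13.2, above *Rbpms2* at 8.04 and 7.22, whose range met that of *Rtn1* at 7.45 and 5.15. *Nell2* (3.61 and 2.06) and *Akap6* (2.79 and 1.58) overlapped, and *Nrn1* lay at 1.27 and 0.639 CPM per kilobase.

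**Figure D1:**
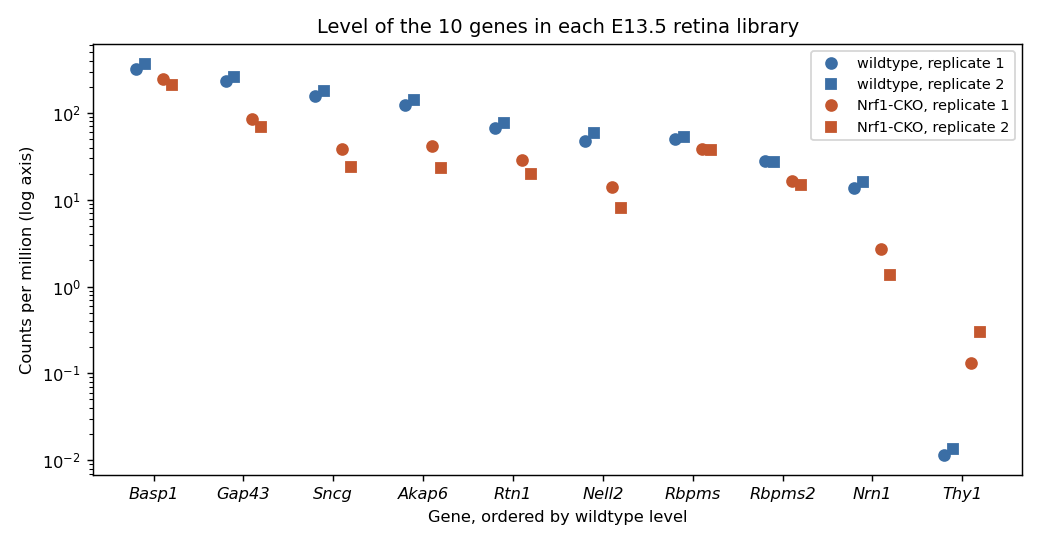
Level of each gene in each library, in CPM on a log axis, with genes ordered by wildtype level and circles and squares for replicates 1 and 2. For all genes except *Thy1* both Nrf1-CKO points lie below both wildtype points, and for *Thy1* the wildtype points, at 0.0114 and 0.0135 CPM, stand for 1 count each.

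The difference between genotypes was fitted with edgeR's quasi-likelihood model over all 15762 genes that passed a filter on low counts. Called genes are those with a 1.4-fold or larger change whose adjusted p did not exceed 0.2, the limits the study used. Below, a gene that fell or rose is one that was called lower or called higher. Of the 10 genes, 8 were called lower in Nrf1-CKO retinas, beside 8.04% of all tested genes. *Thy1* was called higher, beside 12.8% of all tested genes, and it passed the filter only through its Nrf1-CKO counts. On the authors' deposited log2 values *Thy1* had a difference of 0.27 (SE 0.06), smaller than 1.4-fold, and was not called. *Rbpms* was not called. Both Nrf1-CKO libraries were below both wildtype libraries for 9 genes, beside 31.6% of tested genes, and above them for *Thy1*, beside 30.9%. The choice of the genes used this contrast, so for them a call only states which side of the limits a value lies on. It is no test of these genes, and nothing is read from these counts. The median log2 fold change was -1.63 over the 10 genes and -1.68 over the 9 without *Thy1*, beside 0.0007 over all tested genes.

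Among the proteins under the growth cone membrane, *Gap43* codes for a substrate of protein kinase C that is made by neurons extending axons. It had 20582 and 19137 counts in wildtype and 7062 and 5728 in Nrf1-CKO libraries. Its level was 247 ± 16.3 CPM in wildtype and 77.1 ± 11.2 CPM in Nrf1-CKO retinas (SD, n = 2), and its log2 fold change was -1.68 (SE 0.11). The genotypes were far apart relative to their spread, and 31.3% of the wildtype level remained.

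*Basp1*, whose product is anchored in the same membrane domains as GAP43 and also binds calmodulin, differed less. It had 28141 and 27535 counts in wildtype and 20292 and 17284 in Nrf1-CKO libraries. Its level was 346 ± 35.3 and 227 ± 25.0 CPM (SD, n = 2), a log2 fold change of -0.61 (SE 0.11), with 65.4% remaining. The groups did not overlap, but the gap between them, from 321 to 244 CPM, was small beside that of *Gap43*, from 235 to 85.0 CPM.

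Of the surface and secreted proteins, *Nrn1* codes for neuritin, a small protein held on the membrane by a GPI anchor that promotes neurite outgrowth. It had 1183 and 1180 counts in wildtype and 227 and 113 in Nrf1-CKO libraries, that is 14.7 ± 1.70 and 2.05 ± 0.966 CPM (SD, n = 2). This was the lowest remaining level of the 9 genes above the floor, with a log2 fold change of -2.84 (SE 0.28). The Nrf1-CKO replicates were themselves a factor of 0.500 apart, and without Nrf1-CKO replicate 1 the log2 fold change was -3.43. On the authors' deposited log2 values it was -1.54, a smaller difference than those of *Sncg* (-2.25), *Akap6* (-1.88), *Nell2* (-1.80) and *Gap43* (-1.60), so its size and its place as the lowest depend on the scale.

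*Nell2* codes for a secreted glycoprotein with EGF-like repeats that binds the receptor ROBO3 and guides axons. Its counts were 4125 and 4311 in wildtype and 1167 and 660 in Nrf1-CKO libraries. The level was 52.6 ± 7.79 CPM in wildtype and 11.0 ± 4.29 CPM in Nrf1-CKO retinas (SD, n = 2), and the log2 fold change was -2.26 (SE 0.23). Each Nrf1-CKO library lay far below the lower wildtype library, at 14.0 and 7.98 CPM beside 47.1.

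*Rtn1* belongs to the reticulons, which shape tubules of the endoplasmic reticulum, and is used mainly by neurons. With 5904 and 5680 counts in wildtype and 2366 and 1634 in Nrf1-CKO libraries, its level was 72.0 ± 6.48 and 24.1 ± 6.17 CPM (SD, n = 2). Its log2 fold change of -1.58 (SE 0.15) differed from that of *Gap43*, -1.68, by less than the SE of either.

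*Akap6* codes for a large scaffold that anchors protein kinase A at the nuclear envelope, with a known part in RGC survival and axon growth. It had 10843 and 10609 counts in wildtype and 3443 and 1936 in Nrf1-CKO libraries. Its level was 133 ± 13.6 and 32.4 ± 12.8 CPM (SD, n = 2), and the log2 fold change was -2.04 (SE 0.22). The 2 Nrf1-CKO libraries, at 41.4 and 23.4 CPM, were further apart in proportion than the wildtype libraries, at 124 and 143 CPM.

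The gene for synuclein gamma, *Sncg*, is expressed in most mature RGCs and in peripheral neurons. It was read 13812 and 13304 times in wildtype and 3196 and 1954 times in Nrf1-CKO libraries. The level was 169 ± 15.3 CPM in wildtype and 31.0 ± 10.5 CPM in Nrf1-CKO retinas (SD, n = 2), and the log2 fold change was -2.44 (SE 0.20). Next to *Nrn1*, it kept the smallest share of its wildtype level, 18.4%.

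*Rbpms* and *Rbpms2* code for a pair of related RNA-binding proteins whose presence marks RGCs in the adult retina and which smooth muscle and related cells also make. *Rbpms* kept more of its level, 73.0%, than all the genes above. *Rbpms2* kept 57.1%, more than all of those except *Basp1*. *Rbpms* had 4398 and 3941 counts in wildtype and 3181 and 3074 in Nrf1-CKO libraries, or 51.7 ± 2.06 and 37.7 ± 0.803 CPM (SD, n = 2). Its log2 fold change of -0.45 (SE 0.08) was smaller than 1.4-fold, and it passed this limit only without wildtype replicate 1, at -0.49.

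*Rbpms2* had 2441 and 2024 counts in wildtype and 1379 and 1234 in Nrf1-CKO libraries. At 27.6 ± 0.413 and 15.8 ± 1.19 CPM (SD, n = 2), its log2 fold change was -0.81 (SE 0.10). The wildtype replicates of *Rbpms2* differed less, at 27.9 and 27.3 CPM, than those of any other of these genes above the floor. Beside these values stand 11 marker genes of periocular mesenchyme and mural cells, all of them detected, of which 9 rose in Nrf1-CKO retinas. Their summed level was 199 to 271 CPM in wildtype and 400 to 451 CPM in Nrf1-CKO retinas, and the smooth muscle gene *Tagln* had 149 and 91 counts beside 1144 and 1571. Their part in the levels of *Rbpms* and *Rbpms2* was not tested.

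**Figure D2:**
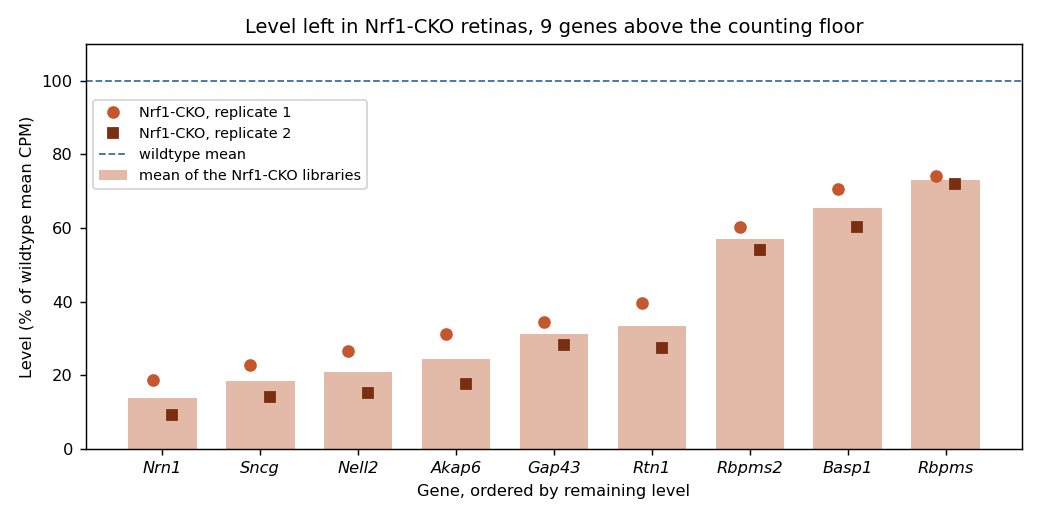
Level in Nrf1-CKO retinas as a percentage of the wildtype mean (CPM) for the 9 genes above the floor; bars give the mean of 2 libraries, circles and squares the libraries. The bars run from 13.9% for *Nrn1* to 73.0% for *Rbpms*, and for every gene the square (replicate 2) is below the circle (replicate 1).

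*Thy1*, the gene for a GPI-anchored surface protein of the immunoglobulin family, is known as a marker of mature RGCs and is also made by fibroblasts, endothelium and lymphocytes. Its level was 0.132 and 0.302 CPM in the Nrf1-CKO libraries, 0.217 ± 0.120 (SD, n = 2). With the wildtype libraries at the floor of 3 counts per library, a mean of 0.0374 CPM, this was at least 5.82-fold higher. For the single libraries the bound was at least 3.54-fold for replicate 1 and at least 8.09-fold for replicate 2. Even the higher of these levels was below that of any other of the 10 genes, the next lowest being *Nrn1* at 1.37 CPM in the same library.

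Marker lists of other tissues are set beside these counts, without regard to whether each tissue makes *Thy1*. No list of lymphocyte markers was examined. All 7 macrophage and microglia markers rose, with sums of 64.4 to 71.6 CPM in wildtype and 219 to 264 CPM in Nrf1-CKO retinas. Of 7 endothelial markers, 5 rose, *Kdr* fell and *Cldn5* was not called. Their sums were 266 to 270 CPM in wildtype and 274 to 282 CPM in Nrf1-CKO retinas, of which *Kdr* made up 200 to 211 and 137 to 144 CPM. The other 6 summed to 58.7 to 66.4 CPM in wildtype and 137 to 138 CPM in Nrf1-CKO retinas. The mesenchymal sums are given above. The 8 lens markers also rose, with sums of 130 to 342 CPM in wildtype and 2895 to 7127 CPM in Nrf1-CKO retinas. Of the 7 pigment epithelium markers, 6 were tested and rose, with sums of 166 to 229 and 418 to 443 CPM. *Rpe65*, which defines mature pigment epithelium, was at 0, 4, 0 and 0 counts and was not tested. None of the other markers of these 5 lists was at 0 in any library. The part of these tissues in the *Thy1* counts was not tested.

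The Nrf1-CKO replicates differed from each other in these genes. Replicate 2 was below replicate 1 for 9 of 9 genes above the floor, by a median of -0.53 on the log2 CPM scale. *Nrn1* differed most, by -0.99, then *Akap6* (-0.82), *Nell2* (-0.81), *Sncg* (-0.70) and *Rtn1* (-0.53), whereas *Rbpms* differed by -0.04. The 12 other RGC markers showed the same order of the libraries in 12 of 12 cases, with a median of -0.42. The median over all tested genes was -0.01. For 13 progenitor markers it was 0.08, with replicate 2 lower for 4 of them. The 8 lens markers were also lower in replicate 2, by a median of -1.35, and the 7 macrophage markers had a median of 0.32. In wildtype the median difference of the 9 genes was 0.19, with replicate 1 the lower library for 8 of them. The 12 other RGC markers had a wildtype median of 0.18 and the 8 lens markers one of 1.45, and all of these markers were higher in wildtype replicate 2. The lens markers thus moved with the RGC genes between the replicates of each genotype. These are values of single libraries, and the cause was not tested.

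Levels relative to *Pou4f2*, a transcription factor gene of newly born RGCs, do not depend on how the libraries were scaled. *Pou4f2* had 14842 and 12815 counts in wildtype and 7897 and 6623 in Nrf1-CKO libraries, a log2 fold change of -0.97 (SE 0.09, adjusted p = 0.000252). *Nrn1* had 0.0797 and 0.0921 counts per *Pou4f2* count in wildtype and 0.0287 and 0.0171 in Nrf1-CKO libraries, so its ratio was 26.7% of that in wildtype. For *Sncg* the ratio was 35.5% of wildtype, for *Nell2* 40.3%, for *Akap6* 46.7%, for *Gap43* 61.1% and for *Rtn1* 65.0%. In these 6 genes both Nrf1-CKO ratios were below both wildtype ratios. The share of all tested genes with such an order, or with the opposite one, was not computed. Nothing is read from the number of genes with either order.

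The other genes had the opposite order. *Pou4f2* itself kept 51.2% of its wildtype level. A gene whose level did not differ between genotypes would therefore also have a higher ratio in Nrf1-CKO libraries. *Rbpms2* had 0.164 and 0.158 counts per *Pou4f2* count in wildtype and 0.175 and 0.186 in Nrf1-CKO libraries, or 112% of wildtype. *Basp1* stood at 128%, with ratios of 1.90 and 2.15 beside 2.57 and 2.61. *Rbpms* stood at 144%, with 0.296 and 0.308 beside 0.403 and 0.464. The 9 genes therefore did not all differ in proportion to one another or to *Pou4f2*. For *Rbpms2* the log2 fold change was only 0.16 above that of *Pou4f2*, with SEs of 0.10 and 0.09. The ratios of these genes share the same *Pou4f2* counts.

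**Figure D3:**
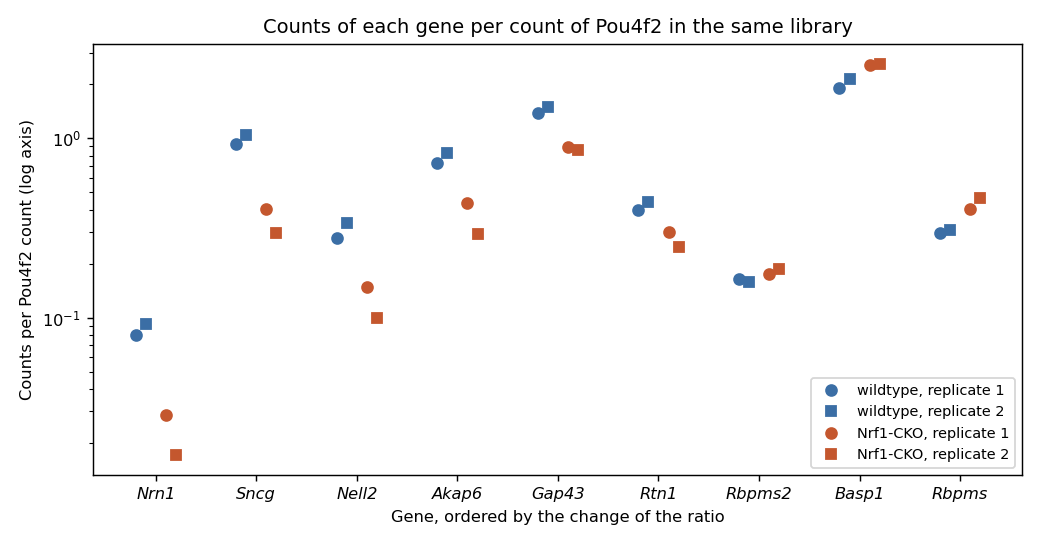
Counts of each of the 9 genes above the floor per count of *Pou4f2* in the same library, on a log axis; blue marks wildtype, orange Nrf1-CKO, circles replicate 1 and squares replicate 2. From *Nrn1* to *Rtn1* both orange points lie below both blue points, and for *Rbpms2*, *Basp1* and *Rbpms* they lie above.

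For each of the 9 genes above the floor, the closest other gene was found among those averaging at least 5 CPM, as the smallest Euclidean distance between the log2 CPM values of the 4 libraries after each gene's mean was removed. With 4 libraries in 2 groups, such likeness is mainly that of the fold change. *Gap43* was closest to *Cntn2*, the gene of an axonal adhesion molecule, at a distance of 0.075. *Rtn1* was closest to *L1cam*, another axonal adhesion gene (0.040), and *Sncg* to *Calb2*, which codes for the calcium-binding protein calretinin (0.082). For *Akap6* it was *Syt4*, a synaptotagmin gene (0.121), and for *Nell2* it was *Scn9a*, a sodium channel gene (0.113). *Nrn1* had *Mstn* (0.142), *Rbpms2* had *Mturn* (0.036), *Basp1* had *Vat1* (0.027) and *Rbpms* had *Kif21b* (0.017). No match is given for *Thy1*, whose wildtype values on this scale are set mainly by the prior count of 2 added before the logarithm.

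Genes related to these 10 by family or pathway were examined in 9 lists of 109 genes, of which 103 were tested. Among the 103, 30 were called lower and 10 higher, beside 8.04% and 12.8% of all tested genes. The median log2 fold change of the 103 was -0.23. The lists were written with earlier results of these data known.

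The collapsin response mediator proteins, which link guidance receptors to microtubules, fell in 5 of 5 genes, with a median log2 fold change of -1.11. *Crmp1* had 26552 and 24890 counts in wildtype and 10083 and 8248 in Nrf1-CKO libraries, a log2 fold change of -1.53 (SE 0.11, adjusted p = 9.88e-05). The log2 fold changes of *Dpysl4*, *Dpysl3*, *Dpysl5* and *Dpysl2* were -1.12, -1.11, -0.78 and -0.63. These genes thus covered the range between *Rtn1* and *Basp1*.

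Of 16 genes for GAP43-like proteins and their regulators, 4 fell and 1 rose, with a median of -0.27. *Gprin1*, whose product binds G proteins and promotes neurite outgrowth, had the lowest value of the list, from 7986 and 7562 counts to 3154 and 2578, a log2 fold change of -1.48 (SE 0.11, adjusted p = 9.88e-05). The adhesion gene *Ncam1* (-0.87), *Gnao1* for the G protein alpha o subunit (-0.79) and *Gprin3* (-0.64, adjusted p = 0.0998) also fell. The MARCKS proteins are further calmodulin-binding substrates of protein kinase C at this membrane. *Marcks* had a log2 fold change of -0.40 (SE 0.09, adjusted p = 0.0109), smaller than 1.4-fold, and *Marcksl1* one of 0.02 (SE 0.08, adjusted p = 0.894). *Pcp4*, a calmodulin-binding gene, rose from 348 and 211 to 835 and 541 counts, a log2 fold change of 1.28 (SE 0.25, adjusted p = 0.00652). The calls of *Pcp4* and *Gnao1* were lost on the deposited log2 values.

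Among the 6 relatives of neuritin and NELL2 and the Robo receptors, 3 fell and 1 rose. *Robo3*, the receptor gene for NELL2, had 77 and 174 counts in wildtype and 25 and 27 in Nrf1-CKO libraries, a log2 fold change of -2.35 (SE 0.56, adjusted p = 0.0159). This value was -1.48 without wildtype replicate 2. On the authors' deposited log2 values it was -0.51 and the call was lost, as was that of *Nell1*, at -0.40. In the counts, *Nell1* (-1.30, adjusted p = 0.0234) and the guidance receptor gene *Robo2* (-1.12, adjusted p = 0.000257) fell. *Robo1* had 8934 and 7620 counts in wildtype and 9088 and 8307 in Nrf1-CKO libraries, with overlapping groups and a log2 fold change of 0.04. *Robo4*, a receptor of endothelium, rose by 1.10 (SE 0.17, adjusted p = 0.00200), beside the endothelial markers given above. *Nrn1l*, the relative of *Nrn1*, was read 16 to 30 times per library and had a log2 fold change of -0.63 (adjusted p = 0.566).

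Within the synuclein family of *Sncg*, *Sncb* was barely expressed. It had 13 and 18 counts in wildtype beside 5 and 4 in Nrf1-CKO libraries, a log2 fold change of -1.81 (SE 0.90, adjusted p = 0.192), and its call was lost in most alternatives.

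In the list of the other reticulons, Nogo receptors, co-receptors and REEP proteins, 5 of 12 genes fell and 1 rose, with a median of -0.40. *Rtn2* fell by 0.86 on the log2 scale (SE 0.11, adjusted p = 0.000848), whereas *Rtn3* had a log2 fold change of -0.16 (adjusted p = 0.202). *Rtn4*, the gene of the outgrowth inhibitor Nogo, had one of -0.40 (SE 0.08, adjusted p = 0.00766), smaller than 1.4-fold. The co-receptor genes *Ngfr* (-1.33, adjusted p = 0.000285) and *Lingo1* (-1.05, adjusted p = 0.000345) and *Reep1*, for a protein that shapes the endoplasmic reticulum (-1.03, adjusted p = 0.000436), fell. *Tnfrsf19*, another co-receptor gene, rose by 0.87 (SE 0.14, adjusted p = 0.00287).

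Among 18 of 21 tested genes of protein kinase A and its anchoring proteins, 3 fell and 1 rose, with a median of -0.18. *Prkar1b*, a regulatory subunit gene, had 1780 and 1731 counts beside 760 and 640, a log2 fold change of -1.37 (SE 0.13, adjusted p = 0.000252). *Akap7* (-0.59) and *Prkar2b* (-0.51) fell and *Akap2* rose (0.66). *Akap6*, at -2.04, lay outside the range of this list, from -1.37 to 0.66.

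The neuronal relatives of *Thy1* on the cell surface and its integrin partners moved in both directions, with 3 of 11 lower and 3 higher. *Ly6h*, for a neuronal Ly6 protein, fell from 616 and 754 to 247 and 192 counts (log2 fold change -1.70, SE 0.23, adjusted p = 0.00104). *Ntm*, of the IgLON adhesion family, had a log2 fold change of -0.84 (adjusted p = 0.00220), and *Lsamp*, of the same family, had one of -0.49 (adjusted p = 0.104). The integrin genes *Itgb3* (1.41), *Itgb5* (0.62) and *Itgav* (0.59) rose.

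Of 20 actin regulators of the growth cone, 2 were called lower, with a median of -0.10. In all, 17 had a log2 fold change below 0 and 3 above. The called genes were *Rac3*, for a neuronal GTPase (-0.69, adjusted p = 0.00401), and *Tmsb10*, for a protein that binds actin monomers (-0.59, adjusted p = 0.000786).

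Regeneration-associated genes of injured axons were mixed, with 3 lower and 3 higher of 13 tested among 16 genes. *Atf3*, a stress-induced transcription factor gene, rose from 61 and 77 to 428 and 688 counts, a log2 fold change of 2.96 (SE 0.31, adjusted p = 0.000318). *Cebpd* (1.77, adjusted p = 0.0111) and *Jun* (0.49, adjusted p = 0.0101) also rose. The neuropeptide gene *Gal*, with 2015 and 2014 counts in wildtype and 836 and 803 in Nrf1-CKO libraries, fell by 1.34 on the log2 scale (SE 0.12, adjusted p = 0.000191). *Klf7*, for a transcription factor of axon growth (-0.63), fell as well. The calls of *Klf7*, *Jun*, *Prkar2b*, *Lsamp* and *Gprin3* did not hold in every alternative.

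**Figure D4:**
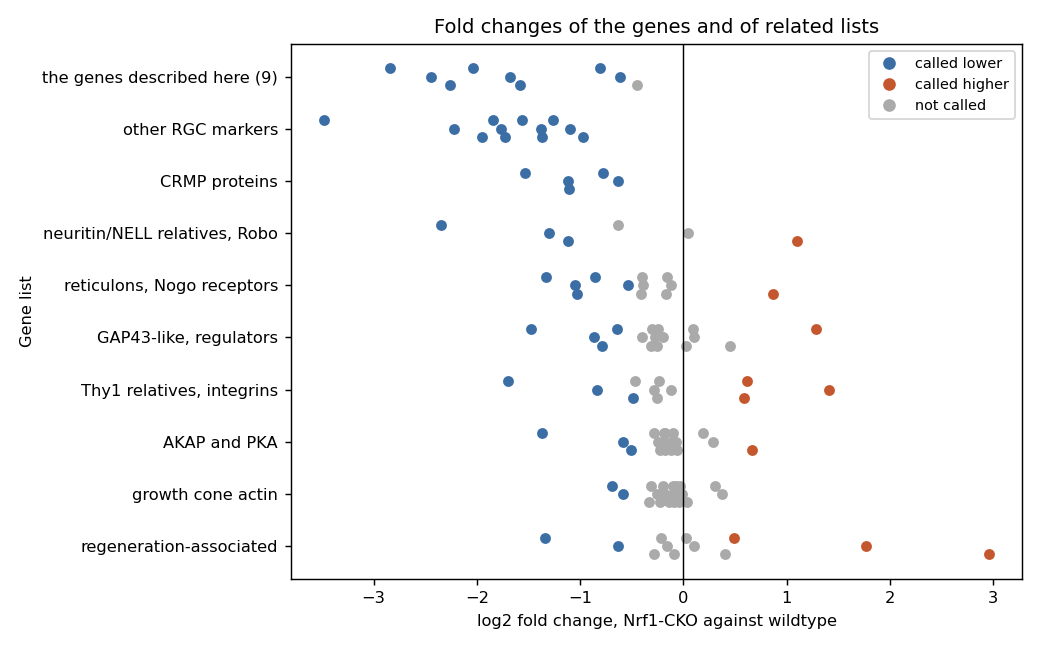
Log2 fold change of Nrf1-CKO against wildtype for the 9 genes above the floor and for tested genes of related lists; blue points were called lower, orange higher and grey not called. The other RGC markers and the CRMP genes are all on the left of 0, with medians of -1.64 and -1.11, while most growth cone actin genes are grey and near 0.

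Reference genes of RGC formation and progenitors are set beside these values. *Atoh7*, which gives progenitors the competence to form RGCs, had 8203 and 9668 counts in wildtype and 7183 and 7953 in Nrf1-CKO libraries. Its log2 fold change was -0.29 (SE 0.14, adjusted p = 0.175), and its groups overlapped. *Isl1*, an early transcription factor gene of RGCs, fell by 1.37 on the log2 scale (SE 0.13, adjusted p = 0.000233). Of the 13 progenitor markers, 3 were called lower. In all, 10 had a log2 fold change below 0 and 3 above. The median of the list was -0.10 on the log2 scale, with sums of 9920 to 10387 CPM in wildtype and 7985 to 8387 CPM in Nrf1-CKO retinas. *Gap43*, *Sncg*, *Nell2*, *Akap6*, *Rtn1* and *Nrn1* each had a lower log2 fold change than *Isl1*, and *Basp1*, *Rbpms* and *Rbpms2* a higher one than *Pou4f2*.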

How the data were processed

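RNA-seq libraries of E13.5 retinas, 2 wildtype and 2 Nrf1-CKO, were grouped by the genotype in their labels. Per the labels and the study's methods, the authors aligned paired-end reads to mm10 with TopHat2 (given as version 2.7.2), and HTSeq gave the counts per gene. The deposited counts were whole numbers without normalization. The annotation release and strand setting are not given in the sources used here. HTSeq's summary rows, mostly reads without a unique position, made up 74.0% to 75.0% of entries and were left out. The authors also deposited normalized values on a log2 scale. The labels list DESeq and limma among the tools without saying what each was used for, so the method behind these values is not given in the sources used here. They were used only as an alternative.

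Genes were filtered with filterByExpr (minimum count 10), scaled with TMM factors of 0.992 to 1.02 and compared by quasi-likelihood in edgeR 4.0.16 (R 4.3.3), with Benjamini-Hochberg adjustment over 15762 genes. Calls needed a 1.4-fold or larger change and an adjusted p no higher than 0.2, as in the study's methods, whose Cuffdiff step needs the reads. CPM are reads scaled to a common library size with these factors, and standard errors were derived from the fold change and its F statistic. The common biological coefficient of variation was 12.0%. The floor was 3 counts per library, and a gene not above it in either library of a genotype has a fold only as a bound, and intervals, errors and floors cover no PCR duplication. P-values set the difference between genotypes against the spread between these libraries, which are pools and not single animals. The scripts were tested on simulated counts.

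The 10 genes and all lists were chosen with earlier results of these data known. All 10 genes are named, every gene of lists of at most 6 genes, up to 4 called genes per direction of longer lists, direct relatives of the 10, *Nrf1*, *Pou4f2*, *Isl1* and *Atoh7*, and the closest gene of each (not given for *Thy1*, which was at the floor). The values of 2 genes under this rule are not reported here, though the counts of their lists include them. Marker genes named beside them (*Tagln*, *Kdr*, *Cldn5* and *Rpe65*) were chosen after their values were seen. Alternatives were other scalings, DESeq2 1.42.0, edgeR's exact test, other filters, a replicate block, a stricter threshold, each library left out, and limma 3.58.1 on the log2 values. Gene models came from GENCODE (GRCm38).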

Additional observations from a re-analysis of the deposited data

How the results depend on the processing

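No result on the 10 genes changed direction. The number of them called lower was 8 in each of the 11 alternatives that kept every library and 8 or 9 with single libraries omitted, which is a description and no support, since the genes were chosen with this contrast known. The median log2 fold change of the 9 genes above the floor then ranged from -1.86 to -1.54. Leaving out a library gave 1071 to 1402 genes called lower and 1703 to 1856 higher over all genes, and 26 to 29 lower and 9 to 11 higher in the related lists. Without Nrf1-CKO replicate 1, the log2 fold changes were -3.43 for *Nrn1*, -2.83 for *Sncg*, -2.72 for *Nell2*, -2.51 for *Akap6* and -1.86 for *Rtn1*, and without replicate 2 they were -2.43, -2.13, -1.91, -1.69 and -1.34 in the same order. The deposited log2 values tested with limma gave 669 genes lower and 816 higher, beside 1268 and 2024 from the counts. On that scale the calls of *Thy1* (0.27), *Gnao1*, *Pcp4*, *Nell1* and *Robo3* were among those lost, and *Nrn1* was at -1.54. The alternative with another pseudocount was not run because these values were already logarithms. Signs turned only for genes near 0: *Marcksl1* (-0.00 by library size only, -0.01 to 0.05 with single libraries omitted), *Nrf1* (0.01 by upper-quartile scaling) and *Robo1* (-0.03 to 0.09 with single libraries omitted). Among related genes, *Sncb* was called in few alternatives, and *Gprin3*, *Lsamp*, *Prkar2b*, *Jun* and *Klf7* lost their call in at least 1. The log2 fold change of *Atoh7* was -0.51 without wildtype replicate 1 and -0.03 without wildtype replicate 2. *Thy1* was not tested where at least 10 counts were required in every library or Nrf1-CKO replicate 2 was omitted.

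The genotypes share replicate numbers, but deviations of same-numbered libraries had a correlation of r = -0.03 over 11326 genes, and 2 pairs do not establish a pairing. With the replicate number as a block, 1256 genes were called lower, 8 of them among the 10 genes, and 1970 higher, with 29 and 10 in the related lists. Depth limited *Thy1*, *Nrn1l* and *Sncb*, and 2 libraries per genotype limit the precision of every value.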
